A study of Mus musculus with 6 samples.

Results

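The genes described here are 9 cholinergic genes of the mouse: the muscarinic receptor genes Chrm1, Chrm2, Chrm3 and Chrm4, the nicotinic receptor subunit genes Chrna4, Chrna5, Chrna7 and Chrnb2, and the acetylcholinesterase gene Ache. They were chosen by symbol from a table of 55414 genes, and each symbol stood on 1 row. All 9 passed the minimum of 1 TPM, averaged over the libraries, that left 14916 genes for testing. TPM is a transcript level scaled for transcript length and library total, so levels of different genes can be set side by side. The data are RNA sequencing of total RNA from hippocampus in 6 libraries, 3 from mice treated with CerM and 3 from mice treated with vehicle. The labels name the tissue and the treatment and number the samples as biological replicates. CerM is not spelled out, and no strain, age, sex, dose or duration is given. The title of the series concerns gut bacteria, ceramides and depression after corticosterone, and whether either group received corticosterone is not said in the labels. Whether each library is a separate animal is not stated either, and the p-values then reflect only how far these libraries spread.

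Acetylcholine reaches the hippocampus mostly through axons from the medial septum and the diagonal band, whose cell bodies lie outside it. Muscarinic receptors are coupled to G proteins: the products of Chrm1 and Chrm3 act mainly through Gq and phospholipase C, and those of Chrm2 and Chrm4 through Gi and Go, which lower cyclic AMP and open potassium channels. Nicotinic receptors are pentameric ion channels. In brain the commonest kinds join alpha4 with beta2 subunits, at times with alpha5 as an accessory subunit, or are built from alpha7 alone. Acetylcholinesterase ends the signal by splitting acetylcholine in the synaptic cleft. In tissue RNA, fewer cells of a type and less RNA per cell cannot be told apart.

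The libraries were checked first, since some stand apart. Each held 14546 to 15058 genes at 1 TPM or more. The number of reads is unknown, because TPM does not keep depth. Summed TPM of 8 choroid plexus markers was 256 to 310 in CerM 2, vehicle 1 and vehicle 2, and 9355 to 15790 in the other libraries. Summed TPM of 6 adipocyte markers was 667 in CerM 3 and 0.45 to 1.80 elsewhere. Vehicle 1 also had the highest sum of 9 neocortical markers and the lowest sum of 7 dentate granule cell markers, given with the results they move with. Hippocampal markers were present in every library, with all 6 CA1, 6 CA3 and 7 dentate markers at 1 TPM or more on average. Of 8 markers of cholinergic neurons, 6 stayed under 1 TPM in every library, among them those that define the cell bodies: choline acetyltransferase Chat reached at most 0.11 TPM, the vesicular transporter gene Slc18a3 0.23 and the choline transporter gene Slc5a7 0.31. The other 2 of the 8 were at 1 TPM or more on average, Ngfr at 0.71 to 2.77 and Isl1 at 0.02 to 2.23 over the libraries. The list summed to 2.29 to 4.58 TPM in CerM and 1.27 to 4.56 in vehicle, lowest in vehicle 1.

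Transcripts for receptors of the M1 class and for the esterase were the most abundant of the 9. Averaged over 6 libraries, Chrm1 had 91.0 ± 10.6 TPM (SD, n = 6) and Ache 36.8 ± 5.52. Chrm3 followed at 21.6 ± 2.45 and Chrnb2 at 19.8 ± 2.66. Chrm4 had 10.2 ± 2.17 TPM, Chrna4 9.28 ± 2.55 and Chrna7 9.02 ± 3.08. Chrna5 at 4.02 ± 0.99 TPM and Chrm2 at 2.19 ± 0.28 closed the order. Chrm1 lay above 88.9% of tested genes in mean level and Chrm2 above 11.8%. The ranges over the 6 libraries did not overlap between Chrm1 and Ache, between Ache and Chrm3, or between Chrnb2 and Chrm4. Chrm3 and Chrnb2 overlapped, although Chrm3 was the higher in 5 of 6 libraries. Chrm4, Chrna4 and Chrna7 could not be ordered: Chrna4 exceeded Chrna7 in 3 of 6 libraries. Chrna5 was above Chrm2 in all 6 libraries, with ranges that overlapped.

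**Figure D1:**
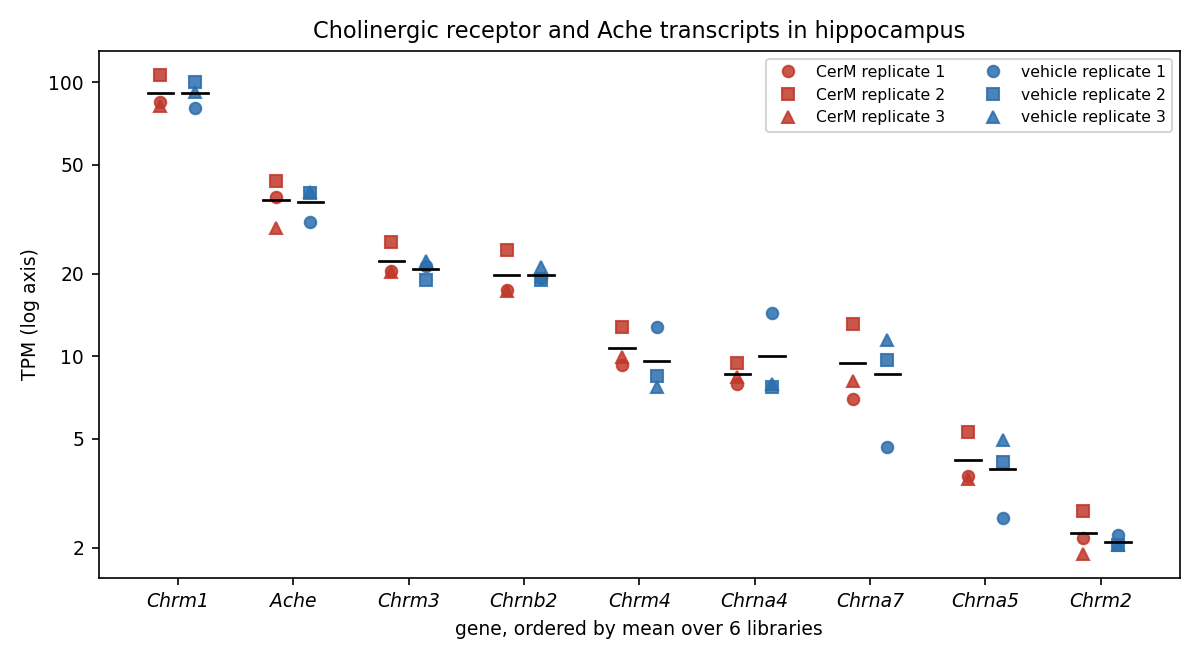
TPM of each gene in each of the 6 libraries on a log axis, with CerM in red, vehicle in blue, the symbol giving the replicate and the black bar the group mean. The levels run from about 2 TPM for Chrm2 to about 100 for Chrm1, and the red and blue symbols overlap for every gene.

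Among the muscarinic genes, none separated CerM from vehicle. Chrm1, the main muscarinic receptor of hippocampal pyramidal neurons, had 84.5, 106 and 81.6 TPM in CerM 1 to 3 and 80.7, 100.3 and 92.3 in vehicle 1 to 3. CerM 2 and vehicle 2 were high, and both groups reached down to about the same level. Chrm3, the other Gq-coupled member, had 20.5, 26.0 and 20.2 TPM in CerM and 21.4, 19.0 and 22.2 in vehicle. Only CerM 2 stood above the vehicle libraries. Chrm4, a Gi-coupled receptor, had 9.29, 12.8 and 9.94 TPM in CerM and 12.8, 8.43 and 7.69 in vehicle. CerM 2 and vehicle 1 shared the high end, so the highest library of each group was nearly the same. Chrm2, the Gi-coupled receptor found on cholinergic terminals and many interneurons, had 2.18, 2.72 and 1.90 TPM in CerM and 2.22, 2.05 and 2.05 in vehicle. The vehicle libraries lay within the CerM range.

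The makeup of the summed transcripts of the 4 muscarinic members was alike in the groups. Chrm5, given below, is not in this sum. Chrm1 made up 68.9% to 77.3% of the summed TPM of the 4 genes in the 6 libraries, Chrm3 14.6% to 18.3%, Chrm4 6.19% to 10.9% and Chrm2 1.58% to 1.90%. Chrm1 and Chrm3 are the Gq-coupled pair of the 4. Together they held 89.8% ± 0.34 (SD, n = 3) in the CerM libraries and 90.4% ± 2.80 (n = 3) in the vehicle libraries. The lowest share of the pair, 87.2%, was in vehicle 1, which also had the highest share of Chrm4. No test was made on these shares, because the genes were chosen together.

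The nicotinic subunits overlapped between treatments, and the alpha subunits ranged widely between libraries. Chrnb2, the beta subunit of the commonest brain receptor, had 17.4, 24.4 and 17.3 TPM in CerM and 19.2, 19.0 and 21.1 in vehicle. The vehicle libraries lay inside the range of CerM. Chrna4, its usual alpha partner, had 7.89, 9.46 and 8.40 TPM in CerM and 14.3, 7.70 and 7.91 in vehicle. Vehicle 1 stood alone at the top, and the other 5 libraries lay between 7.70 and 9.46.

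Chrna7, whose product forms channels of a single subunit with high calcium permeability, had 6.98, 13.1 and 8.11 TPM in CerM and 4.68, 9.69 and 11.5 in vehicle. Vehicle 1 was the lowest and CerM 2 the highest, a 2.81-fold range. Chrna5, the accessory subunit, had 3.66, 5.28 and 3.55 TPM in CerM and 2.57, 4.10 and 4.96 in vehicle. It had the same lowest and highest library as Chrna7, with a 2.05-fold range. The median tested gene above 0 in every library had a 1.48-fold range, and 90.6% of such genes varied less than Chrna7, 80.8% less than Chrna5 and 75.3% less than Chrna4. Chrm1 was the steadiest of the 9, at 1.32-fold.

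Chrnb2 held a nearly fixed share of the nicotinic transcripts, while in vehicle 1 Chrna4 held a larger share and Chrna7 and Chrna5 smaller ones. Shares of a common sum are not independent, since a rise in any of them lowers others. Of the summed TPM of the 4 genes, Chrnb2 made up 46.4% to 48.5% in all 6 libraries. Chrna4 held 35.1% in vehicle 1 and 17.4% to 22.5% in the other 5. Chrna7 held 11.5% in vehicle 1 and 19.4% to 25.3% in the others, and Chrna5 6.30% against 9.49% to 10.9%. The ratio of Chrna4 to Chrnb2 was 0.75 in vehicle 1 and 0.38 to 0.48 in the others. The ratio of Chrna7 to Chrna4 was 0.33 in vehicle 1 and 0.88 to 1.45 in the others. That of Chrna5 to Chrna7 stayed between 0.40 and 0.55 in all 6 libraries. Between groups the shares overlapped for each of the 4 genes.

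**Figure D2:**
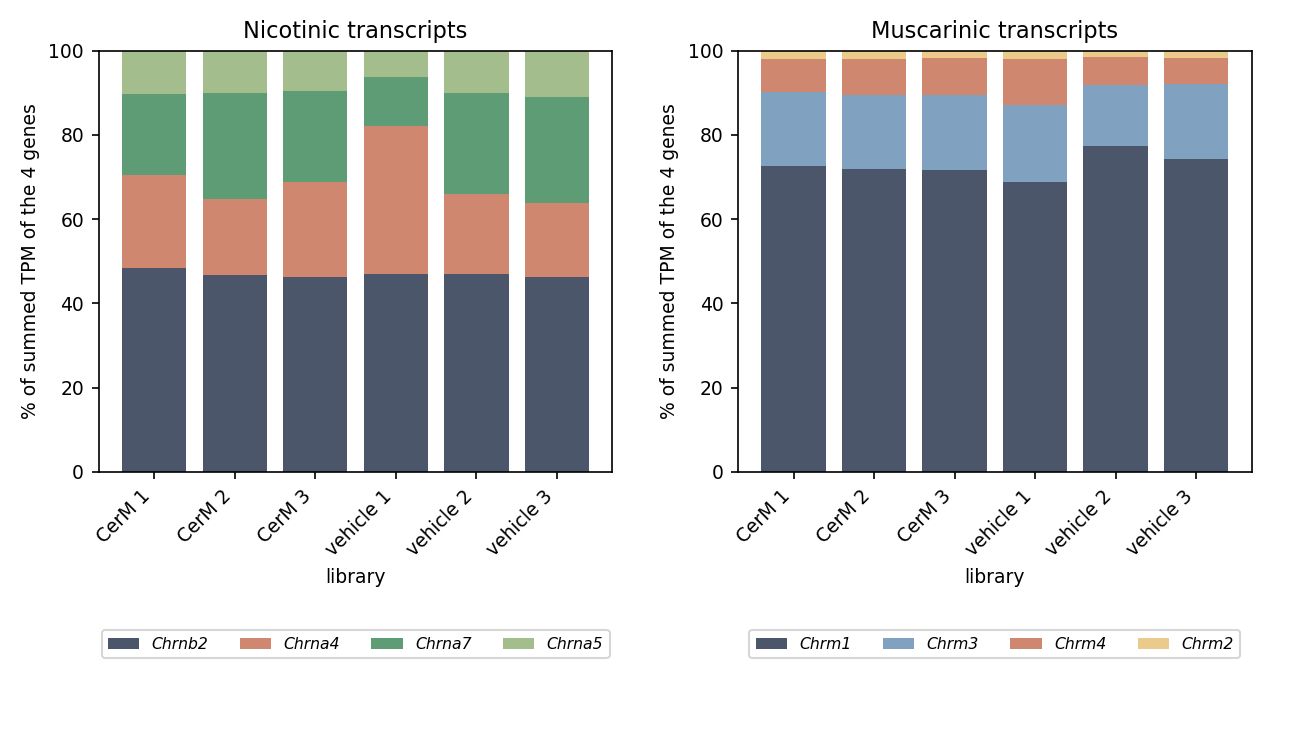
Share of the summed TPM of the 4 nicotinic genes (left) and the 4 muscarinic genes (right) in each library, as stacked bars in percent. Chrnb2 fills 46.4% to 48.5% of each left bar, and Chrna4 widens to 35.1% in vehicle 1 where Chrna7 narrows to 11.5%.

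The promoter windows of the 3 alpha subunit genes are shown because Chrna4 lay at one end and Chrna5 and Chrna7 at the other in vehicle 1. Each runs from 250 bases before to 50 after a transcription start in RefSeq, build GRCm38.p6, 5′ to 3′ in the direction of the gene. The libraries were aligned to a later build, per the submitters' processing notes, so these positions serve only to identify the windows. Capitals mark the GC box GGGCGG and the EGR site GCGGGGGCG on either strand. The windows are chr2:181039128-181039427 on the minus strand for Chrna4, chr7:63212477-63212776 on the minus strand for Chrna7, and chr9:54981238-54981537 on the plus strand for the second of 2 listed starts of Chrna5.
Chrna4: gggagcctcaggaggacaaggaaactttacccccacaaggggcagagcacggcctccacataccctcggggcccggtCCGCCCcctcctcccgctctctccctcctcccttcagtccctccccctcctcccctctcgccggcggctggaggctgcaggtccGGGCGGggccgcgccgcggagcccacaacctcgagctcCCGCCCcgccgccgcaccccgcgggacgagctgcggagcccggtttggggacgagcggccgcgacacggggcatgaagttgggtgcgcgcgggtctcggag
Chrna7: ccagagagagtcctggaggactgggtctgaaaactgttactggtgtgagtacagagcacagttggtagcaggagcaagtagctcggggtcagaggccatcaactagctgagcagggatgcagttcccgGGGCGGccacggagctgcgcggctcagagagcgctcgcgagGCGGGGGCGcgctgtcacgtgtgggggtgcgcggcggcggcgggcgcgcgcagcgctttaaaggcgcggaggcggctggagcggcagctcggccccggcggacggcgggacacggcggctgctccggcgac
Chrna5: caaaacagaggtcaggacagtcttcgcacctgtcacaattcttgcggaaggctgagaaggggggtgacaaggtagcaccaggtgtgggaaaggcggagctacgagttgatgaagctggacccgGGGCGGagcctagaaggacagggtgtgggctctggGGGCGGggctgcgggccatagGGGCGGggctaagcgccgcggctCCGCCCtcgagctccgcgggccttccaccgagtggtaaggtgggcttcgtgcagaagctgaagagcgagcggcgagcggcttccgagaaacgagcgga
The windows hold 74.3%, 70.0% and 65.0% G and C in that order, where the median of 32851 windows in the table is 52.7%. GC boxes number 3 in Chrna4, 1 in Chrna7 and 4 in Chrna5 at the start shown. The window of the first listed start of Chrna5 has 41.3% G and C and 0 GC boxes.

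The table has 9 windows for 8 of the 9 genes, all but Chrm1. A GC box was found in 7 of these 9 windows and in 35.7% of all windows. The EGR site, the letters bound by the activity-induced factor Egr1, was found in 2 of 9, those of Chrna7 and Ache, and in 2.91% of all windows. In Ache it overlaps GC boxes. The core of the glucocorticoid element, ACANNNTGT, was found in 1 of 9, the window of Chrna5 at its second start, and in 6.85% of all windows. None of the 9 held TATAAA, the cyclic AMP element TGACGTCA, the E-box CAGCTG or the RE1 stretch TTCAGCACC, which occur in 13.6%, 1.79%, 16.3% and 0.371% of all windows. All were searched on both strands. A match says only that the letters are there.

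Ache had nearly the same mean level in both groups, each with 1 low library. It had 38.0, 43.5 and 29.4 TPM in CerM 1 to 3 and 30.8, 39.5 and 39.7 in vehicle 1 to 3. CerM 3 and vehicle 1 were low, and the other 4 libraries lay between 38.0 and 43.5. The means were 37.0 ± 7.10 TPM (SD, n = 3) in CerM and 36.7 ± 5.08 (n = 3) in vehicle. Its membrane anchor and the related esterase are given below with the pathway.

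The comparison the design makes is CerM against vehicle, and it was fitted over all 14916 genes with limma on log2(TPM + 1). Fold changes are CerM over vehicle on that scale, which understates changes of low genes. Of the 9 cholinergic genes, 0 passed limma's test at 0.05 after adjustment, as did 0% of all tested genes. At an unadjusted p below 0.05 there were 0 of 9, beside 2.7% of all tested genes. CerM and vehicle overlapped in all 9, where 7.3% of tested genes had groups that did not overlap. Log2 fold changes lay above 0 for 6 and below for 3, with a median of 0.065, while 58.8% of all tested genes lay above 0 with a median of 0.034.

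By gene, the muscarinic log2 fold changes were −0.009 ± 0.13 for Chrm1 (SE), 0.065 ± 0.18 for Chrm2, 0.083 ± 0.13 for Chrm3 and 0.15 ± 0.21 for Chrm4. The nicotinic ones were −0.15 ± 0.23 for Chrna4, 0.098 ± 0.24 for Chrna5, 0.15 ± 0.33 for Chrna7 and −0.019 ± 0.15 for Chrnb2. That of Ache was 0.004 ± 0.17. Adjusted p-values from limma ran from 0.989 to 0.999. The two-sided exact permutation test of each gene gave p-values from 0.5 for Chrm4 to 1 for Chrm1, Chrnb2 and Ache, where 3 against 3 can give no less than 0.1.

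The intervals bound how large a difference these libraries could hide. For all 9 genes the 95% confidence interval lay within 2-fold of TPM + 1, as for 90.2% of tested genes. It lay within 1.5-fold for 5 of them, Chrm1, Chrm2, Chrm3, Chrnb2 and Ache, and for 63.7% of tested genes. The widest belonged to Chrna7, from −0.64 to 0.93, and Chrna4 had −0.69 to 0.39. The 2-fold bound depends on the setting for Chrna7 alone of the 9 genes: its upper end was 1.03 with a pseudocount of 0.1, 1.02 with no TPM minimum and up to 1.24 with 1 library left out. For Chrm2, at about 2 TPM, the bound on TPM itself is looser.

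**Figure D3:**
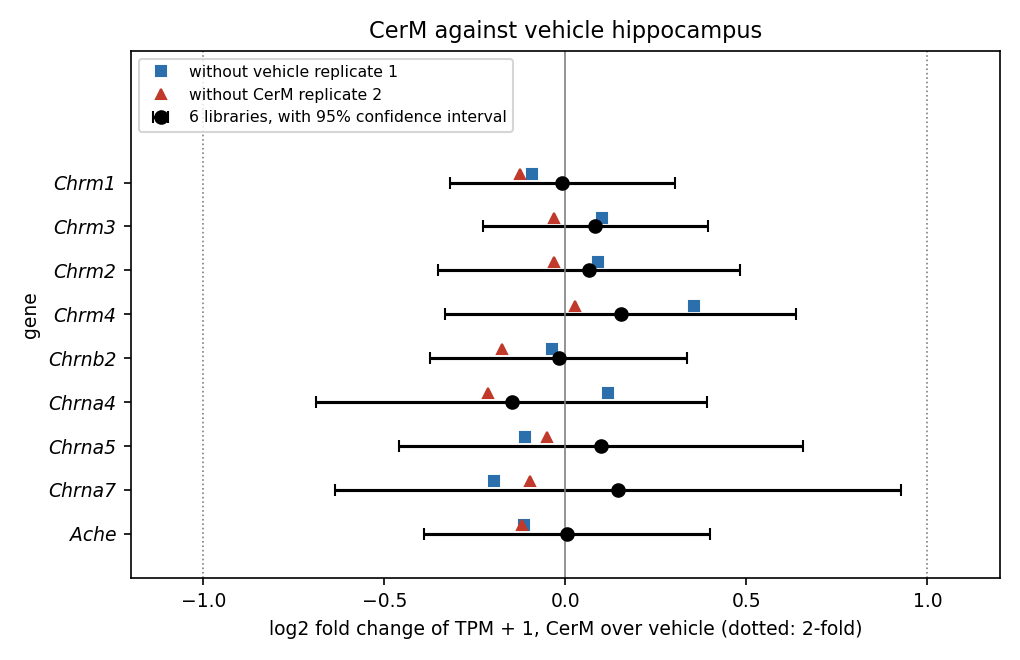
Log2 fold change of TPM + 1 in CerM over vehicle for each gene, with its 95% confidence interval (black), and the values without vehicle replicate 1 (blue) and without CerM replicate 2 (red). All 9 intervals span 0, and leaving out vehicle 1 moves Chrna4 from −0.15 to 0.12 and Chrna7 from 0.15 to −0.20.

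The sign of most of these small differences rested on single libraries. Without vehicle 1, the log2 fold change was 0.12 for Chrna4, −0.11 for Chrna5, −0.20 for Chrna7 and −0.11 for Ache, and that of Chrm4 grew from 0.15 to 0.35. Without CerM 2, it was −0.051 for Chrna5, −0.097 for Chrna7, −0.032 for Chrm2, −0.030 for Chrm3 and −0.12 for Ache, and Chrm4 shrank to 0.028. Without both, a choice made after seeing the data, Chrna7 had −0.44 (95% confidence interval −0.86 to −0.02), with an unadjusted limma p of 0.0427 and an adjusted p of 0.892. In the same setting Chrm1 had −0.21 (−0.40 to −0.02), with an unadjusted p of 0.0397 and the same adjusted p. With array quality weights Chrm1 also had −0.21, with an unadjusted limma p of 0.0447 and an adjusted p of 0.268, where all libraries weighted alike gave −0.009. Adjusted p-values of Chrna7 ran from 0.690 to 1.00 over its 17 alternatives. Without CerM 3, the log2 fold change of Ache was 0.15. No member was called with any library left out.

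Vehicle 1 was where the members parted most. Relative to the median of the other 5 libraries, Chrna4 was at 1.81-fold and Chrm4 at 1.37-fold in vehicle 1. Chrna7 was at 0.48-fold, Chrna5 at 0.63-fold, Ache at 0.78-fold and Chrm1 at 0.87-fold. Chrm2, Chrm3 and Chrnb2 lay between 1.01-fold and 1.08-fold. Among tested genes the same ratio had a median of 0.95, from 0.52 at the 5th percentile to 1.52 at the 95th, so Chrna4 and Chrna7 lay beyond these limits on opposite sides. Vehicle 1 was the lowest library for 3 of the 9 genes, Chrm1, Chrna5 and Chrna7, and for 32.8% of all tested genes.

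Markers of cell types and regions moved in the same library. Summed TPM of 9 neocortical projection neuron markers, 8 of them at 1 TPM or more, was 130 in vehicle 1 against 73.5 and 82.5 in the other vehicle libraries and 74.4 to 78.5 in CerM, and 7 of the 9 were highest there. The 7 dentate granule neuron markers summed to 75.8 TPM in vehicle 1 against 135 and 141 in the other vehicle libraries and 123 to 147 in CerM, and all 7 were lowest there. The 6 CA3 markers summed to 232 TPM against 355 and 361 in vehicle and 319 to 382 in CerM. The 8 oligodendrocyte markers summed to 4034 against 6189 and 7014 in vehicle and 6381 to 7356 in CerM. The 6 CA1 markers also had their lowest sum in vehicle 1, at 283 TPM against 327 and 338 in vehicle and 302 to 357 in CerM. Of these 6, 4 were lowest in vehicle 1 and 1, Mpped1, was highest there. None of these markers was at 0 in all libraries. Their part in the values of Chrna4, Chrm4, Chrna5 and Chrna7 was not tested.

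The 7 thalamic neuron markers, each at 1 TPM or more on average and led by Calb2, also had their lowest sum in vehicle 1. It was 87.2 TPM there, against 146 and 168 in the other vehicle libraries and 112 to 199 in CerM. Of the 7, 4 were lowest in vehicle 1, Calb2 among them, while 2 were highest there, Slc17a6 at 10.7 TPM and Rgs16 at 7.91. The 9 interneuron markers, led by Sst, summed to 1685 TPM in vehicle 1, the highest of 6, and 1326 to 1677 elsewhere. The genes of this list were divided: 5 were highest in vehicle 1, among them Lamp5 and Vip, and Gad1, at 201 TPM, was lowest there. Sst itself had 682 TPM in vehicle 1, within the range of 588 to 872 of the others. The 9 striatal markers, led by Ppp1r1b, summed to 144 TPM in vehicle 1, within the range of 126 to 198 of the others. The 8 medial habenula markers summed to 37.6 TPM in vehicle 1 and 21.4 to 31.8 elsewhere. Most of that sum came from Tac2, at 20.3 TPM there, and Nwd2, at 15.4, while Pou4f1, which defines habenular neurons, reached at most 0.11 TPM and 5 of the 8 stayed under 1 TPM in every library.

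**Figure D4:**
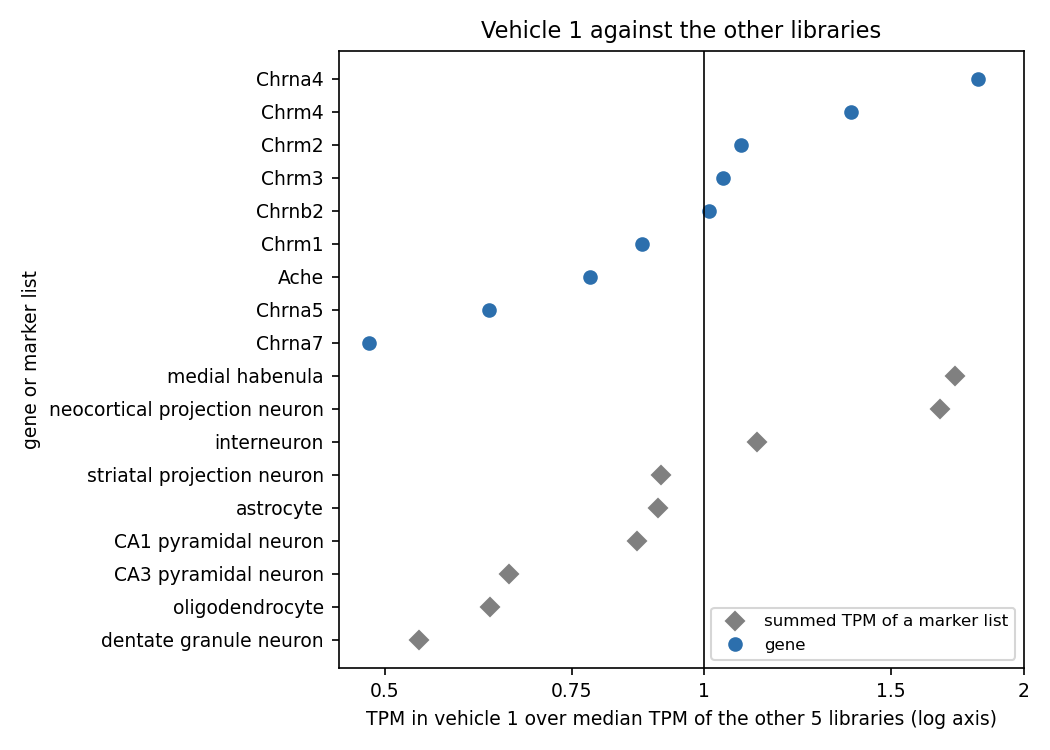
TPM in vehicle 1 divided by the median of the other 5 libraries, on a log axis, for each of the 9 genes (circles) and for summed TPM of 9 marker lists (diamonds). Chrna4 at 1.81 lies near the neocortical and habenular lists, and Chrna7 at 0.48 near the dentate granule neuron list at 0.54. Not all marker lists are shown: among those left out, the thalamic list was at 0.60 and the cholinergic neuron list at 0.31.

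CerM 2 was the highest library for 8 of the 9 genes, all but Chrna4. It was also the highest for 41.1% of all 14916 tested genes. Its ratio to the median of the other 5 libraries ran from 1.15 for Ache to 1.62 for Chrna7, beside a median of 1.11 over all tested genes. The count depended on scaling: 6 of 9 with median-ratio scaling (22.7% of tested genes), 7 of 9 with quantile normalization (25.2%) and 7 of 9 without genes of mitochondrial DNA (34.7%). Chrm4 left the count under all 3, with vehicle 1 then the highest, and Chrm1 under median-ratio scaling, with vehicle 2 the highest. All 9 genes in CerM 2 lay above their own mean over libraries, by 0.07 to 0.62 on the log2 scale, and all 9 in CerM 3 lay below it, by at most 0.31. For Chrm2, Chrnb2 and Ache, CerM 2 was the highest and CerM 3 the lowest of the 6 libraries. Of the marker lists, those of CA1 (357 TPM), CA3 (382), thalamic (199) and dentate neurons (147) and of astrocytes (2230), microglia (224) and oligodendrocytes (7356) also had their highest sum in CerM 2, while the neocortical list (78.1) and the interneuron list (1503) did not. The cholinergic neuron list was highest there too, at 4.58 TPM, with 4.56 in vehicle 3. The medial habenula (31.8), striatal (132), endothelial (209), skeletal muscle (14.4), adipocyte (0.77) and red blood cell (953) lists were not. The choroid plexus markers summed to 310 TPM in CerM 2. The part of these cell types in the values of CerM 2 was not tested.

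**Figure D5:**
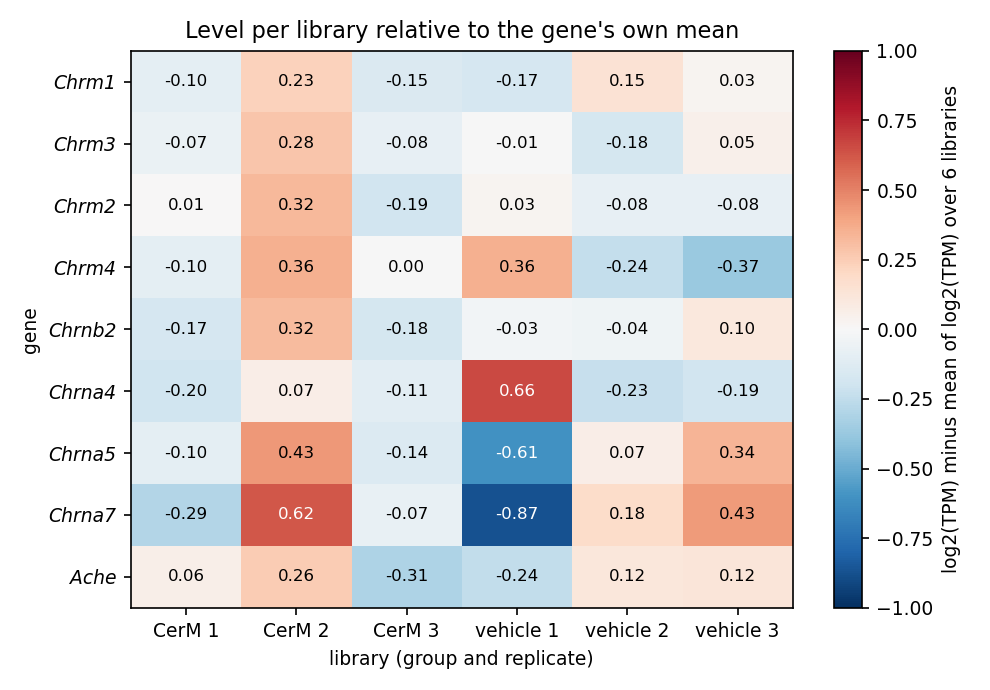
Each gene's log2(TPM) in each library minus its mean over the 6 libraries, written in the cell and shown as colour from blue (lower) to red (higher). The column of CerM 2 is above 0 for all 9 genes, and vehicle 1 holds both extremes, 0.66 for Chrna4 and −0.87 for Chrna7.

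The remaining cholinergic receptor genes were scarce in this tissue. Of 13 others, only Chrm5, the fifth muscarinic receptor, was tested, at 2.07 ± 0.25 TPM (SD, n = 3) in CerM and 1.47 ± 0.64 (n = 3) in vehicle, with a log2 fold change of 0.34 ± 0.24 (SE) and an adjusted limma p of 0.989. The 12 others are nicotinic subunits with a mean under 1 TPM, of which Chrnd, a subunit of muscle receptors, was listed at 0 in every library. Chrna3 and Chrnb4, which lie beside Chrna5 in 1 gene cluster, had 0.51 ± 0.08 and 0.33 ± 0.26 TPM (SD, n = 6), against 4.02 for Chrna5.

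In 3 of those 12 subunit genes the groups did not overlap, each higher in CerM, and they are named after their values were seen. Chrnb1, a beta subunit of muscle receptors, had 1.28, 0.80 and 1.00 TPM in CerM and 0.26, 0.42 and 0.62 in vehicle. Chrna1, the alpha subunit of muscle receptors, had 0.71, 1.03 and 0.70 TPM in CerM and 0.47, 0.64 and 0.52 in vehicle. Chrna2, known from interneurons of the hippocampal stratum oriens, had 0.64, 0.73 and 0.50 TPM in CerM and 0.09, 0.28 and 0.42 in vehicle. Vehicle 1 was the lowest library for all 3. Of 3746 genes under 1 TPM on average and above 0 in every library, 5.5% had all CerM libraries above all vehicle libraries. That share counts only the direction already seen in the 3 genes, and the share in either direction is not given. Among tested genes, 7.3% had groups that did not overlap, with both directions counted. Of the 12 subunit genes, 7 were above 0 in every library, these 3 among them. With no TPM minimum, the log2 fold change of Chrnb1 was 0.50 (95% confidence interval 0.14 to 0.87), with an unadjusted limma p of 0.015. That of Chrna2 was 0.37 (0.07 to 0.67), with an unadjusted limma p of 0.0236, and that of Chrna1 0.23 (−0.06 to 0.52), with 0.106. In that setting limma's adjusted p was 0.934 for each of the 3, and each exact permutation p was 0.1, the smallest possible. Chrne, another muscle subunit gene, went the other way, with 0.08 and 0.17 TPM in CerM 1 and 2 and listed at 0 in CerM 3, against 0.38, 0.16 and 0.46 in vehicle. Its groups overlapped, and with no TPM minimum its log2 fold change was −0.30 (95% confidence interval −0.55 to −0.04), with an unadjusted limma p of 0.0312 and an adjusted p of 0.934. The 6 skeletal muscle markers summed to 13.2 to 14.4 TPM in CerM and 13.5 to 18.3 in vehicle. Most of that sum came from Acta1, at 16.5 TPM in vehicle 1, and the genes were divided. Of the 6, 2 were highest in vehicle 1, Acta1 and Myh4. Another 2 were lowest there, Mylpf at 0.48 TPM and Tnnt3, listed at 0.

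Among genes listed for acetylcholine synthesis and transport or as esterases and their anchors, 0 of the 7 tested passed the test. Of the 7 genes listed for synthesis and transport, 4 were tested: Acly, Slc44a1 and the choline kinase genes Chka and Chkb. All 4 lay above 0, with a median of 0.14, where 58.8% of all tested genes lay above 0. The other 3, Chat, Slc18a3 and Slc5a7, which make acetylcholine, load it into vesicles and take up choline, fell under the minimum and were not tested: the CerM and vehicle means were 0.060 and 0.063 TPM for Chat, 0.063 and 0.15 for Slc18a3, and 0.18 and 0.17 for Slc5a7. With no TPM minimum the median of all 7 was 0.012. Without CerM 2 the median of the tested genes was 0.060, without vehicle 1 it was 0.079, and without both it was −0.029. Acly, which makes cytosolic acetyl-CoA, had 76.4 ± 9.16 TPM (SD, n = 3) in CerM and 75.4 ± 11.5 (n = 3) in vehicle. Chka, a choline kinase, had 32.0 ± 3.52 against 26.6 ± 3.30 TPM, with a log2 fold change of 0.26 ± 0.13 (SE). Of the 4 esterase and anchor genes, 3 were tested and all lay above 0, with a median of 0.32, or 0.16 with no TPM minimum, 0.17 without CerM 2, 0.20 without vehicle 1 and 0.049 without both. Bche, the second cholinesterase, had 1.57, 1.79 and 1.73 TPM in CerM and 1.14, 0.94 and 1.35 in vehicle. Its groups did not overlap, as for 7.3% of all tested genes. Prima1, which anchors Ache in the membrane of neurons, had 5.84 ± 1.36 against 4.55 ± 1.56 TPM. Both had an adjusted limma p of 0.989.

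Of 12 genes listed as assembling or modulating nicotinic receptors, 10 were tested and 0 were called. Log2 fold changes lay above 0 for 3 of the 10 and below for 7, with a median of −0.10, where 58.8% of all tested genes lay above 0. That median was −0.035 without vehicle 1, −0.032 without CerM 3, −0.049 without CerM 1 and −0.19 without CerM 2. Vsnl1, a neuronal calcium sensor that was both the most abundant and the one with the smallest p, had 554 ± 33.4 TPM (SD, n = 3) in CerM and 678 ± 154 (n = 3) in vehicle. Its vehicle mean rests on 856 TPM in vehicle 1, with 576 and 604 in the other vehicle libraries.

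Downstream signalling genes centred near the median of all genes. For Gq signalling, 11 of 15 tested genes lay above 0 and 4 below, with a median of 0.045. Prkcb, a protein kinase C, was the most abundant at 415 ± 19.7 against 445 ± 42.4 TPM. Rgs4, which speeds the shutdown of Gq and Gi, had the smallest p, with 88.8, 100.3 and 95.3 TPM in CerM and 177, 101 and 101 in vehicle. Its vehicle libraries all lay above CerM, but vehicle 2 and 3 by little, and 7.3% of tested genes had groups that did not overlap. For Gi signalling, 10 of 16 tested genes lay above 0 and 6 below, with a median of 0.036. Gnao1, the alpha subunit of Go, stood at 338 ± 49.2 against 337 ± 12.1 TPM, and Gnai3, a Gi alpha subunit, at 15.4 ± 1.64 against 13.2 ± 2.65. Without CerM 2 the medians were −0.028 for Gq and −0.037 for Gi signalling, and without vehicle 1 −0.021 and 0.015. Limma called 0 genes of either list, and 0 had an unadjusted p below 0.05.

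For each member the gene with the most similar profile was named by the highest Pearson r of log2(TPM + 1) over the 6 libraries, out of 13326 genes searched. These were Galk2 for Chrm1 (r = 0.994), Zdhhc16 for Chrm2 (0.992), Paip2b for Chrm3 (0.997), Kcnk9 for Chrm4 (0.984), Arhgap10 for Chrna4 (0.996), Rcc2 for Chrna5 (0.999), Gpd2 for Chrna7 (0.999), Rftn2 for Chrnb2 (0.998) and Idua for Ache (0.996). Spearman's rho for these pairs ran from 0.886 to 1. Each is the maximum of a search over 6 points that share their libraries, so a high r is given by the search. The share of searched genes with r above 0.9 was 8.88% for Chrna7 and 8.36% for Chrna5, and 0.51% for Chrm4. Arhgap10 had 7.68 TPM in vehicle 1 and 4.24 to 5.22 elsewhere, as Chrna4 peaked in that library. Gpd2, a mitochondrial glycerol phosphate dehydrogenase, had 38.7 TPM in vehicle 1 and 53.5 in CerM 2, the same ends as Chrna7.

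Some values may hold reads of neighbouring genes. Chrnb2 overlaps the coding gene Adar, which runs on the opposite strand and stood at 46.3 TPM, and strand-specific counting is not stated, so reads from the shared stretch cannot be told apart. Of the other members, 5 are overlapped only by noncoding or pseudogene entries, none above 1.55 TPM where a level is listed. Chrm4, Chrna4 and Chrna5 are overlapped by none. The entry at 1.55 TPM, 9330158H04Rik, runs opposite Chrm2, which itself had a mean of only 2.19 TPM. For Chrm2, too, reads from a shared stretch cannot be told apart.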

How the data were processed

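RNA from 6 hippocampal samples was sequenced. Per the labels' protocols, total RNA was purified with TRIzol, cleared of DNA with DNase I, and turned into sequencing libraries by the TruSeq method. The authors deposited 1 table of TPM values with 1 column per sample. The submitters' processing notes list GRCm39 as the build and HISAT2, StringTie and RSEM as tools, without saying which step each did. TPM totals ran from 993379 to 995403. TPM keeps no depth, so no counting interval was computed, and precision comes from 3 libraries per group.

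Groups and replicate numbers were taken from the sample titles. Genes with a mean of at least 1 TPM entered limma 3.58.1 (R 4.3.3) as log2(TPM + 1) with a variance trend, two-sided, with Benjamini-Hochberg adjustment over 14916 genes and a threshold of 0.05. The fit was also run on simulated data with known changes and independent noise. Those data lacked shifts of a whole library, and how many of the changes were found is not given. Single genes were also compared by exact permutation. The 9 genes and all lists were chosen with earlier results of these data known. Named genes are the 9 members, the most abundant gene and that with the smallest p in each pathway list, the gene most like each member (leaving out names of the Gm and Rik kind), and the leading gene of marker lists. Which genes overlap was read from GENCODE M21, and promoter windows from RefSeq. No pair of libraries held identical values.

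Alternatives changed the pseudocount (0.1, 0.5), the minimum (none, 5 TPM), the scaling (quantile, median-ratio, TPM without mitochondrial DNA genes), the variance trend, sample weights and the replicate number as a block, and left out each library. Leaving out CerM 2 and vehicle 1 together was chosen after seeing the data. Tables and plots were made in Python 3.11.15 with matplotlib 3.10.9, pandas 2.3.3, scipy 1.17.1 and numpy 2.4.6.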

Additional observations from a re-analysis of the deposited data

How the results depend on the processing

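Over 17 alternatives limma called 0 of the 9 genes in each. Over all genes it called 0 in the settings that kept all 6 libraries and 0 to 7 with 1 library left out. It called 0 without vehicle replicate 1, 7 without CerM replicate 3, and 1 without each of the other 4 or without CerM replicate 2 and vehicle replicate 1 together. Of 151 log2 fold changes of the 9 genes under alternatives, 118 kept their direction and 33 turned it, all uncalled. Only Chrm4 kept its sign in all 17. Apart from the left-out libraries, the cause of a turn was not tested. Quantile normalization gave 0.0089 for Chrm1, −0.028 for Chrm2 and −0.011 for Ache, median-ratio scaling −0.019 for Ache, and TPM without mitochondrial DNA genes 0.0059 for Chrm1. Sample weights gave −0.0091 for Chrm2, 0.049 for Chrna4, −0.096 for Chrna5, −0.17 for Chrna7 and −0.25 for Ache. With 1 library left out, log2 fold changes ran from −0.13 to 0.062 for Chrm1, −0.032 to 0.15 for Chrm2, −0.030 to 0.14 for Chrm3, 0.023 to 0.35 for Chrm4, −0.29 to 0.12 for Chrna4, −0.11 to 0.26 for Chrna5, −0.20 to 0.37 for Chrna7, −0.17 to 0.061 for Chrnb2 and −0.12 to 0.15 for Ache. Without CerM replicate 2 and vehicle replicate 1 together, they were −0.21 for Chrm1, −0.0063 for Chrm2, −0.012 for Chrm3, 0.23 for Chrm4, −0.19 for Chrnb2, 0.054 for Chrna4, −0.26 for Chrna5, −0.44 for Chrna7 and −0.24 for Ache. Of 119 medians of pathway lists under alternatives, 4 moved by more than the spread between replicates: without those libraries together, nicotinic subunits to −0.23, synthesis and transport to −0.029 and esterases with anchors to 0.049, and without CerM replicate 2, assembly and lynx genes to −0.19.

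The replicate numbers in the titles were checked for pairing. Deviations from the group means correlated at 0.008, 0.196 and 0.222 across genes between libraries numbered 1, 2 and 3. Not every pair passed 0.1. Deviations of 3 libraries sum to 0 in each group, so these values cannot decide whether same-numbered samples were paired. With the replicate block limma called 0 genes, and log2 fold changes are unchanged by construction (−0.0088 for Chrm1, 0.065 for Chrm2, 0.15 for Chrna7). Vehicle 1 correlated best with CerM 2, at 0.065, and the other 5 libraries with their own number. Depth is unknown, and levels near 1 TPM or below are the least certain.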
